A study of Mus musculus with 6 samples.

Results

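Transcript signals of 50 listed genes of nucleolar ribosome assembly and RNA polymerase I were examined in the mouse line 10T1/2. The members were taken by symbol, using every probe set that the platform annotation assigned to exactly 1 gene. Of the 50, 49 had such a probe set, out of 18194 genes measured in all. The exception was Mrto4, whose probe set is annotated to its pseudogenes as well. They were covered by 101 probe sets, and 47 members lay on the MOE430A array, 18 on MOE430B and 16 on both. The list was drawn up with results of these arrays known, so its differences between samples are a description and carry no test.

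The material was a single group of 3 samples, numbered 5, 4 and 1, of untreated 10T1/2 cells, a fibroblast line from mouse embryos that can be induced to form muscle, fat and cartilage cells. Cells were grown in DMEM with 10% FBS and collected at 80% confluency, total RNA was prepared with RNeasy, and 5 µL at 100 ng/µL was supplied. Biotin-labelled target from each sample was read on 1 MOE430A and 1 MOE430B Affymetrix array, so there were 6 arrays in all. The labels give the purpose as a profile that can be subtracted from those of stem cells, and say that the best samples were used without saying by what measure. Whether they came from separate cultures is not stated, and their spread may therefore be technical. In bulk RNA, fewer cells expressing a gene and less RNA per cell cannot be told apart.

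The nucleolus is where ribosomes are built. RNA polymerase I copies the ribosomal DNA into a long precursor RNA, small nucleolar ribonucleoproteins (snoRNPs) modify it, and assembly factors fold and cut it into the RNAs of the small and the large subunit. Growing fibroblasts make many ribosomes, and in mammals many of these genes are known targets of the growth regulator Myc, which with its partner Max binds the DNA letters CACGTG, the E-box.

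Promoter letters are shown for the members whose window holds an E-box, because the members are described below as a group and the E-box is a well-known element of such genes. RefSeq windows of GRCm38.p6, from 250 bases before to 50 bases after the start of transcription, were matched for 44 of 50 members. CACGTG, which reads the same on both strands, stood in 7 of these 44 (15.9%), against 2187 of 27025 genes in the table (8.09%) and 1559 of 17492 protein-coding genes (8.91%). In 3 members it lay upstream. The windows cover chr1:34439579-34439828 for Imp4, chr6:125131633-125131882 for Nop2 and chr16:13780449-13780698 for Rrn3, all on the plus strand and ending just before the start. The capitals mark the E-box, which begins 121 bases before the start in Imp4, 60 before it in Nop2, and 215 and 48 before it in Rrn3.
Imp4: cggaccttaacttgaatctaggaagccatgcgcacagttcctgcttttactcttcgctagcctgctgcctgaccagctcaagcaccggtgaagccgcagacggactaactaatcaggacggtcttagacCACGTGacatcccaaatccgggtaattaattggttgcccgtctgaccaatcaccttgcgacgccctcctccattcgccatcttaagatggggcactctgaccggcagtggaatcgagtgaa
Nop2: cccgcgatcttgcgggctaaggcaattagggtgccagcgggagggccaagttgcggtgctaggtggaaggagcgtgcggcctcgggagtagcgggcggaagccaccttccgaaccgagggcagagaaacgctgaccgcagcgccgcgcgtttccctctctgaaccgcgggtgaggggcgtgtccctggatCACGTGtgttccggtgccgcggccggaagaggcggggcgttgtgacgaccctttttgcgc
Rrn3: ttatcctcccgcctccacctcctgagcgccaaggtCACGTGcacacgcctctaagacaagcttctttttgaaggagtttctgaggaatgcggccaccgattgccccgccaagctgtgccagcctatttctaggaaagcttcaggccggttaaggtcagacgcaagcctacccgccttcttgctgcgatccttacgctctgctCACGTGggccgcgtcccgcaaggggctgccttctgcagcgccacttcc
In the other 4 it lay just inside the transcript, beginning at transcript base 29 in Ltv1, 3 in Pes1, 25 in Tsr1 and 18 in Wdr43. Sites of 30 bases are given for these, at chr10:13193092-13193121 on the minus strand for Ltv1 and, on the plus strand, at chr11:3963965-3963994 for Pes1, chr11:74898092-74898121 for Tsr1 and chr17:71616220-71616249 for Wdr43, again with the E-box in capitals.
Ltv1: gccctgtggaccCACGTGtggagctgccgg
Pes1: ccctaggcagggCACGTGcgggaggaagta
Tsr1: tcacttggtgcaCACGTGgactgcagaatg
Wdr43: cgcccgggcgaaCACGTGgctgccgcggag
Such a match is a description of these letters and not a site of binding. The signals of the 7 genes did not follow 1 pattern. Nop2, Wdr43 and, on MOE430B, Tsr1 were well above the other samples in sample 5. Imp4 was nearly level in all 3 by its detected probe set (values below).

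Signals are MAS5 intensities in arbitrary units, scaled on each array, so levels are compared between samples for 1 probe set and never between genes. For each array a background limit was taken, the 95th percentile over the probe sets of genes that belong to distant tissues. It came to 1048, 1416 and 1211 in samples 5, 4 and 1 on MOE430A and to 4204, 4133 and 4861 on MOE430B. The limit rests on 116 probe sets of 92 genes on MOE430A but on 13 of 11 genes on MOE430B, where it lies between the brightest 2 of them. Without the brightest, an alternative chosen after seeing the data, the MOE430B limits were 2192, 2516 and 3552 and 21 members were detected. A gene was called detected when 1 of its probe sets was above the limit on 3 of 3 arrays. The arrays differed in other ways. The 3′ to 5′ signal ratio of Gapdh, a measure of RNA or target length, was 10.6, 15.0 and 24.7 in samples 5, 4 and 1 on MOE430A. Hybridisation controls, added in equal amounts by design, read lower in sample 5, with a median log2 ratio of -0.80 over sample 4 and -0.82 over sample 1 on MOE430A. On that design sample 5 was washed on fluidics station 2 and the others on station 1, whereas all 3 MOE430B arrays used station 1. Of 12 fibroblast markers 11 were detected on MOE430A. The summed signal of the 12 was 201366 in sample 5, 483528 in sample 4 and 455020 in sample 1, a sum in which the brightest genes weigh most. Singly, Pdgfra was highest in sample 5 (8560, 4006 and 8198 in samples 5, 4 and 1). Vim and Prrx1 were lowest in sample 1, and the rest were lowest in sample 5. Prrx1 was also detected on MOE430B, and there it was lowest in sample 5. No marker of epithelium, endothelium, leukocytes, muscle or nerve was detected on MOE430A, and 1 of the epithelial list was on MOE430B.

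Of the 49 members 20 were detected (40.8%), against 24% of all 18194 genes. By design it was 16 of 47 on MOE430A, against 28.8% of its 12394 genes, and 5 of 18 on MOE430B, against 10.6% of 9611. Most members lay on MOE430A, where more genes were detected, so the pooled shares are not like for like. The detected ones were Ncl, Npm1, Dkc1, Nhp2, Nop10, Gar1, Noc4l, Bms1, Wdr43, Heatr1, Rcl1, Imp3, Imp4, Nol6, Emg1, Tsr1, Gnl3, Rrs1, Polr1c and Ubtf. By role, both nucleolar phosphoproteins, 4 of 5 box H/ACA proteins and 9 of 14 small-subunit processome proteins were detected, against 2 of 14 large-subunit factors, 1 of 5 late small-subunit factors, 2 of 6 polymerase I factors and 0 of 3 box C/D proteins. Counted in each sample alone, 47 members were above the limit in sample 5, 22 in sample 4 and 25 in sample 1, while of all genes 34.2%, 29.9% and 30.7% were. Sample 5 thus held nearly every member above background, and 20 of them only there. A share over all genes was not computed for that 20, and sample 5 had the lowest limit on MOE430A. With the highest limit of each design used for all 3 arrays, an alternative chosen after seeing the data, members above it numbered 42, 22 and 25. No share over all genes was computed for these either. Ftsj3 and Rrp12 were above the limit on no array.

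**Figure D1:**
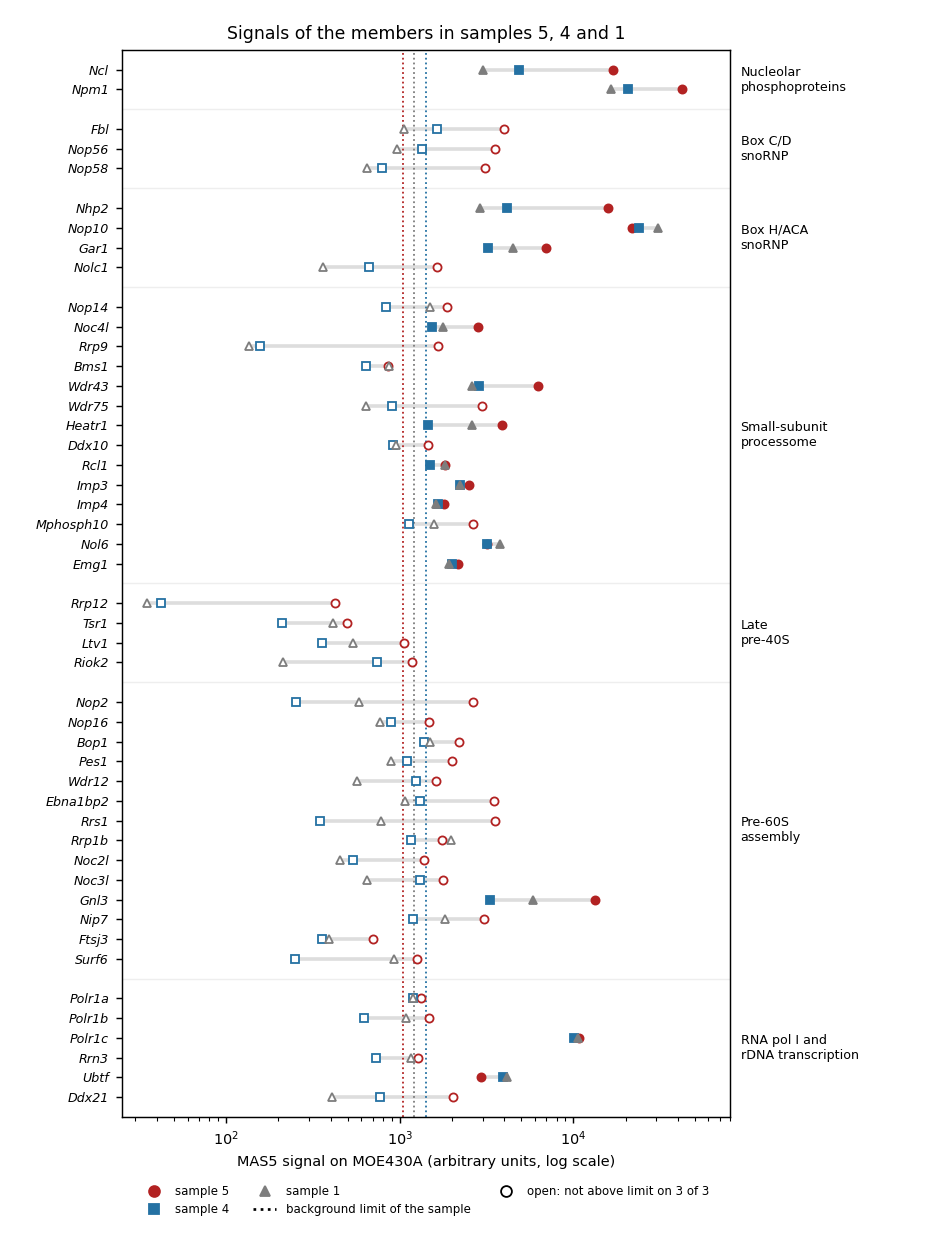
MAS5 signal (log scale) of the 47 members on MOE430A in sample 5 (circles), sample 4 (squares) and sample 1 (triangles), grouped by role. Dotted lines mark each sample's background limit and open symbols members not above it on 3 of 3 arrays. Sample 5 is the rightmost symbol in 41 of 47 members, and Nop10 and Ubtf are the 2 in which it is the leftmost. Of all genes on the design, 29% were highest and 41.9% lowest in sample 5.

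The abundant nucleolar phosphoproteins were highest in sample 5. Nucleolin (Ncl), which binds the precursor RNA and ribosomal chromatin, read 16847, 4846 and 3021 in samples 5, 4 and 1, a mean of 8238 ± 7511 (SD, n = 3). Its signal in sample 5 was 3.48-fold that in sample 4 and 5.58-fold that in sample 1. Nucleophosmin (Npm1), a chaperone of histones and ribosomal proteins, read 42431, 20530 and 16469, which was 2.07-fold and 2.58-fold. A second detected probe set of Npm1 read 17548, 7095 and 7414, and so put sample 5 above the others by a like amount. Nucleolin had 4 further probe sets, none of them detected on 3 of 3 arrays.

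The box C/D snoRNPs are the particles that guide methylation of ribosomal RNA. The 3 of their core proteins that are among the members were above background in sample 5 and below or near it elsewhere. Where a signal was below the limit of its array, the limit was put in its place, and the fold is then written as at least that size. Fibrillarin (Fbl), the methyltransferase itself, read 4004, 1642 and 1054 in samples 5, 4 and 1, so sample 5 was 2.44-fold sample 4 and at least 3.31-fold sample 1. The scaffold protein Nop56 read 3541, 1336 and 964, at least 2.50-fold and 2.92-fold. Its partner Nop58 read 3078, 787 and 647, at least 2.17-fold and 2.54-fold. Nop56 and Nop58 in samples 4 and 1 lay below the limit, so the order of those samples is not measured.

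The box H/ACA snoRNPs, which guide the change of uridine to pseudouridine, split into members far higher in sample 5 and one that was not. Dyskerin (Dkc1), the pseudouridine synthase, was measured on MOE430B and read 35129, 7575 and 5312 in samples 5, 4 and 1, or 4.64-fold and 6.61-fold. Its other detected probe set read 24667, 8671 and 5549, with the samples in the same order. Nhp2, a core protein of the same particle, read 15757, 4121 and 2888 (3.82-fold and 5.46-fold). Its probe set can match several transcripts. Gar1 read 7000, 3232 and 4509, 2.17-fold over sample 4 and 1.55-fold over sample 1. Nop10, the smallest core protein, ran the other way. It read 21653, 23976 and 30756, so that sample 5 was lowest, with log2 ratios of -0.15 and -0.51. Scaled to the hybridisation controls, which shifts all genes of an array alike, these turned to 0.59 and 0.34, still under the 0.65 and 0.72 of all probe sets. A second Nop10 probe set, above the limit on 2 arrays, read 1386, 966 and 1476, with sample 4 lowest. Nolc1, a chaperone of both particle families, was above background in sample 5 alone, with 1637, 663 and 360, at least 1.16-fold and 1.35-fold.

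The small-subunit processome, the large particle that forms on the growing precursor, was divided between genes high in sample 5 and genes nearly level. Wdr43, of the subcomplex that joins first, read 6242, 2873 and 2622 in samples 5, 4 and 1, or 2.17-fold and 2.38-fold. Heatr1, of the same subcomplex, read 3883, 1460 and 2596 (log2 ratios of 1.41 over sample 4 and 0.58 over sample 1), with sample 4 the lowest. Wdr75, also of that subcomplex, was above background in sample 5 alone with 2994, 901 and 642, at least 2.11-fold and 2.47-fold. These probe sets of the 3 members read highest in sample 5, and the other probe sets of Heatr1 and Wdr75 were below the limit on every array. The subcomplex has further proteins that are not among the members. Noc4l, which works with Nop14, was the single member detected on both designs. On MOE430A it read 2838, 1533 and 1774 (1.85-fold and 1.60-fold). On MOE430B it read 30644, 10041 and 8805 (3.05-fold and 3.48-fold), again highest in sample 5, and both probe sets can match several transcripts.

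Level signals marked another set of processome genes. Imp3 read 2512, 2213 and 2218 in samples 5, 4 and 1, and its partner Imp4 read 1800, 1656 and 1611. Mphosph10, which forms a complex with both, read 2650, 1124 and 1572, at least 1.87-fold over sample 4 and 1.69-fold over sample 1. By these probe sets the transcripts of the 3 proteins of 1 complex did not show 1 pattern. The other probe sets of Imp4 and Mphosph10 were below the limit on every array and ran otherwise. On MOE430B Imp4 read 1918, 467 and 1286, and the second of Mphosph10 read 553, 655 and 697. Emg1, a methyltransferase of small-subunit RNA, read 2158, 1988 and 1913. Rcl1 read 1814, 1499 and 1816. Nol6 read 3194, 3182 and 3772, which put sample 1 highest. By their detected probe sets, the 5 level genes (Imp3, Imp4, Emg1, Rcl1 and Nol6) had sample 5 within 1.21-fold of each other sample.

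Of the remaining processome members, Nop14 read 1877, 837 and 1498, and passed the limit in samples 5 and 1. Rrp9, a protein of the U3 snoRNP that starts cleavage, read 1670, 157 and 135. Its measured ratio is 10.6 over sample 4, but the lower signals lie far under the limit, and the bound is at least 1.18-fold. The helicase gene Ddx10 was above the limit in sample 5 alone, with 1453, 918 and 951. Bms1, a GTPase that acts with Rcl1, was below the limit on MOE430A, with 854, 638 and 872. On MOE430B it was detected with 128313, 99307 and 122524, by a probe set that can match several transcripts. Neither design put sample 5 more than 1.34-fold above another sample.

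The late factors of the small subunit, which act on the way to the cytoplasm, were mostly at background outside sample 5. Tsr1, a GTPase-like protein of late particles, read 61050, 19916 and 25898 in samples 5, 4 and 1 on MOE430B (3.07-fold and 2.36-fold), with a probe set that can match several transcripts. On MOE430A Tsr1 was below the limit, with 500, 209 and 414. Nob1, the nuclease that makes the final cut of small-subunit RNA, read 6324, 3448 and 1011 on MOE430B, at least 1.53-fold and 1.30-fold. Ltv1 was just above the limit in sample 5 with 1051, 358 and 535. The kinase gene Riok2 was likewise, with 1181, 738 and 213. Both signals of sample 5 lay under the limits of samples 4 and 1, so no fold can be given. Rrp12 read 421, 42.3 and 35.0 and was background in all 3 samples by this rule.

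Among the large-subunit factors, Gnl3 and Rrs1 were detected. Nucleostemin (Gnl3), a nucleolar GTPase abundant in stem cells and dividing cells, read 13328, 3298 and 5893 in samples 5, 4 and 1, or 4.04-fold and 2.26-fold. Rrs1, which helps to bring in the small ribosomal RNA made by polymerase III, read 44806, 8342 and 15648 on MOE430B (5.37-fold and 2.86-fold), with a probe set that can match several transcripts. On MOE430A a different Rrs1 probe set read 3546, 347 and 778, at least 2.50-fold and 2.93-fold. Both designs placed sample 5 first for Rrs1, and on MOE430A samples 4 and 1 were below the limit and have no order.

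The other 12 large-subunit factors measured were not detected on 3 of 3 arrays. Nop2, a methyltransferase of large-subunit RNA, read 2626, 251 and 581, at least 1.85-fold and 2.17-fold. Ebna1bp2 read 3489, 1315 and 1077, at least 2.46-fold and 2.88-fold. Nip7 read 3071, 1199 and 1812, at least 2.17-fold over sample 4 and 1.69-fold over sample 1. In each of these 3, sample 5 was highest and sample 4 was below its limit. Of the PeBoW complex, Bop1 read 2205, 1375 and 1502, Pes1 read 2003, 1097 and 896, and Wdr12 read 1619, 1244 and 568. All 3 PeBoW genes were highest in sample 5, with Pes1 at least 1.41-fold and 1.65-fold. Noc2l read 1380, 537 and 450, and Noc3l read 1771, 1303 and 649. Nop16 read 1466, 894 and 775. Surf6 read 1256, 248 and 928, above the limit in sample 5 alone. Rrp1b differed in order, with 1746, 1158 and 1968, so that sample 1 was highest by its brightest probe set. Its other 2 probe sets read 1205, 931 and 653, and 1047, 241 and 531, above the limit at most in sample 5. Ftsj3 read 702, 358 and 392.

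With undetected members included, RNA polymerase I and its factors had a median SD of log2 signal over the 3 samples of 0.35 on MOE430A. It was 0.42 for the processome, 0.68 for all members and 0.48 for all genes. Over detected members alone it was 0.16 for the 2 polymerase I factors and 0.15 for the processome. Polr1c, a subunit shared with polymerase III, read 10804, 10140 and 10694 in samples 5, 4 and 1, within 1.07-fold of each other, by a probe set that can match several transcripts. A second detected probe set, whose name does not mark it so, read 2225, 1521 and 1436, which put sample 5 1.46-fold over sample 4 and 1.55-fold over sample 1. The 2 probe sets of Polr1c thus differed. Polr1a, the largest subunit, read 1329, 1188 and 1198, and was above the limit in sample 5 alone. The second subunit, Polr1b, read 1465, 619 and 1080, again above the limit in sample 5 alone. Ubtf, the factor that binds ribosomal DNA and recruits the polymerase, was the opposite of most members. It read 2926, 3935 and 4139, so that sample 5 was lowest, 1.35-fold below sample 4 and 1.41-fold below sample 1. Scaled to the hybridisation controls its log2 ratios turned to 0.31 and 0.35, under the 0.65 and 0.72 of all probe sets. Rrn3, which makes the polymerase ready to start, read 1273, 726 and 1160. Ddx21, an RNA helicase linking polymerase I to snoRNAs, read 2040, 765 and 405, at least 1.44-fold and 1.68-fold.

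**Figure D2:**
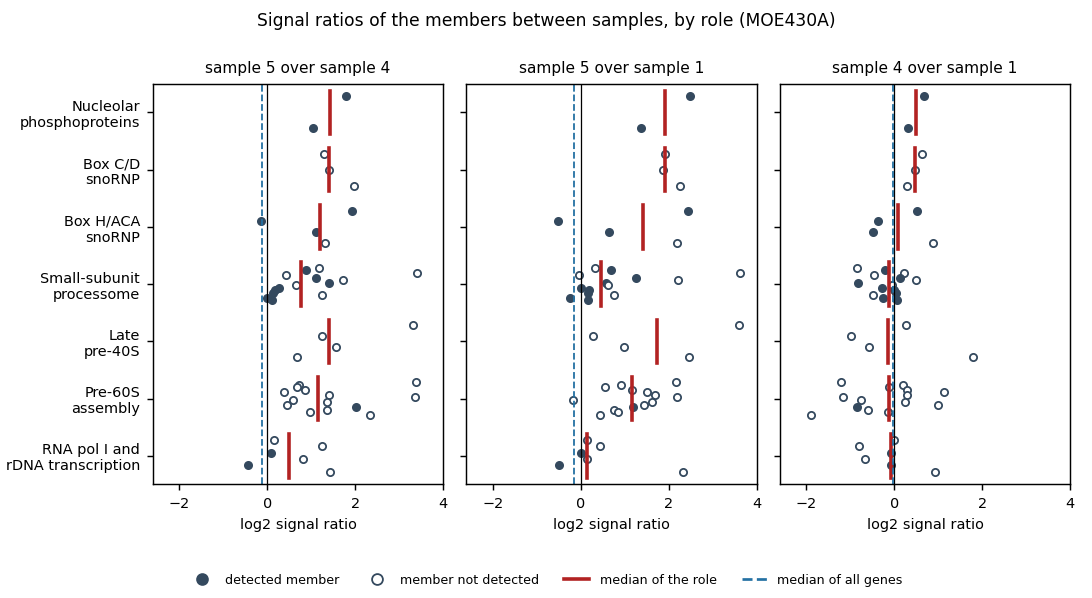
Log2 signal ratios on MOE430A for sample 5 over sample 4, sample 5 over sample 1 and sample 4 over sample 1, one point per member in rows by role, filled where the member was detected. Red bars are role medians and the dashed line is the median of all genes. In the first panel the role medians run between 0.49 for polymerase I factors and 1.42 for the phosphoproteins, with members below background included. Over detected members alone, the 2 polymerase I factors had -0.17, against -0.09 over all detected genes. Polr1c entered with 0.09 by a probe set that can match several transcripts, and its other detected probe set had 0.55.

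Across the members, sample 5 stood above the other samples and samples 4 and 1 were close. Over the 16 members detected on MOE430A, the median log2 ratio of sample 5 over sample 4 was 0.58, against -0.09 over all 3564 detected genes. At least 1.5-fold higher in sample 5 were 8 of the 16, where 13.5% of all genes were, and 0 were at least 1.5-fold lower, where 18.5% were. For sample 5 over sample 1 the median was 0.38 (1.30-fold), against -0.06 over all genes, with 7 of 16 at least 1.5-fold higher (18.8% of all genes) and 0 lower (22.6%). For sample 4 over sample 1 it was -0.07, against 0.02, with 1 higher (13.2%) and 2 lower (12.6%). Leaving out probe sets able to match several transcripts, 13 members remained, with medians of 0.28 over sample 4 and 0.18 over sample 1, and 5 of them were at least 1.5-fold higher over sample 4 (12.6%). No p-value is given, since each sample had 1 array of a design.

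The detection rule leaves out members that were high in 1 sample only, so the same ratios were taken over all 47 members on MOE430A. The median was then 1.12 (2.17-fold) for sample 5 over sample 4 and 0.84 (1.79-fold) over sample 1, against -0.11 and -0.15 over all 12394 genes. At least 1.5-fold higher were 35 of 47 over sample 4 (20.1% of all genes) and 29 of 47 over sample 1 (22.6%), and 0 were lower by as much in either (26% and 30.5%). For sample 4 over sample 1, 7 of 47 were higher (21%) and 11 lower (23.4%). These include signals below background. Kept by their mean signal, 30 members remained, of which 20 were at least 1.5-fold higher over sample 4 (17% of all genes so kept) and 17 over sample 1 (22.6%), with 3 for sample 4 over sample 1 (15.9%). With each such signal raised to the limit of its array, an alternative chosen after seeing the data, 43 members had a value. Of these, 18 were at least 1.5-fold higher over sample 4 (13.5% of genes) and 18 over sample 1 (18.7%), with 0 lower (16.8% and 20.6%). Both of these settings admit members through a high signal in sample 5 alone, such as Nop58, and so are not separate support. With signals raised to the limit, such members could not come out 1.5-fold lower in sample 5, so for them the 0 was fixed. For sample 4 over sample 1, 22 members had a value, with 1 higher (12.7%) and 2 lower (12.3%). Sample 5 was highest in 12 of 16 detected members (75%), against 32.7% of detected genes, and sample 4 was highest in 0. The SD of log2 signal over the 3 samples had a median of 0.37 in the detected members and 0.34 in all detected genes. Without sample 5 it was 0.18 in the members and 0.24 in all genes, without sample 4 it was 0.39 and 0.33, and without sample 1 it was 0.63 and 0.28.

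By role, the medians over the detected members on MOE430A differed in size. For sample 5 over sample 4 and over sample 1 they were 1.42 and 1.92 for the 2 phosphoproteins and 1.11 and 0.63 for 3 box H/ACA proteins. The 8 detected processome genes had 0.23 and 0.18. The 2 polymerase I factors, Polr1c and Ubtf, had -0.17 and -0.24. Polr1c entered with 0.09 and 0.01, by a probe set that can match several transcripts, and its other detected probe set had 0.55 and 0.63. Gnl3 alone stood for the large-subunit factors, and box C/D proteins and late small-subunit factors had none. With undetected members included, the medians rest partly on signals below background, so their sizes are not measured differences. They were then 1.21 and 1.41 for box H/ACA proteins, 1.16 and 1.17 for large-subunit factors, 0.78 and 0.45 for the processome and 0.49 and 0.14 for polymerase I factors. The groups hold between 2 and 14 genes, and differences between roles were not tested.

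The MOE430B arrays gave the same picture for their 5 detected members, Dkc1, Noc4l, Bms1, Tsr1 and Rrs1. Sample 5 was highest in 5 of 5, with a median of 1.62 (3.07-fold) over sample 4 and 1.52 (2.86-fold) over sample 1, against -0.03 and 0.05 over 1022 detected genes. At least 1.5-fold higher were 4 of 5 in each (14% and 21.1% of genes), and 0 were lower (13.1% and 13.5%). For sample 4 over sample 1, 0 were higher (13.7%) and 1 lower (10.1%). These arrays hold the same RNA as the MOE430A arrays, so they bear on the probe sets and arrays and not on further samples. Over all 18 members of the design, most of them below the limit, the medians were 0.49 and 0.49, with 8 at least 1.5-fold higher and 3 lower in each ratio (25.3% and 26.2% higher, 25.9% and 27.9% lower). For sample 4 over sample 1, 4 were higher (25.3%) and 5 lower (27.2%). With lower signals raised to the limit, 7 members had a value for sample 5 over sample 4, and 5 were higher (13.9%) and 0 lower (10.8%). Over sample 1, 4 of 7 were higher (18.4%) and 0 lower (12.3%), and for sample 4 over sample 1 it was 0 of 6 higher (11.7%) and 1 lower (9.79%). Nob1 entered the ratios of sample 5 through that sample alone, so it could not come out 1.5-fold lower there. Noc2l read 5756, 5448 and 4375 in samples 5, 4 and 1, above the limit in the first pair. Bop1 read 441, 1816 and 1240 on MOE430B, below the limit on all arrays, so that design gives no order for it.

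**Figure D3:**
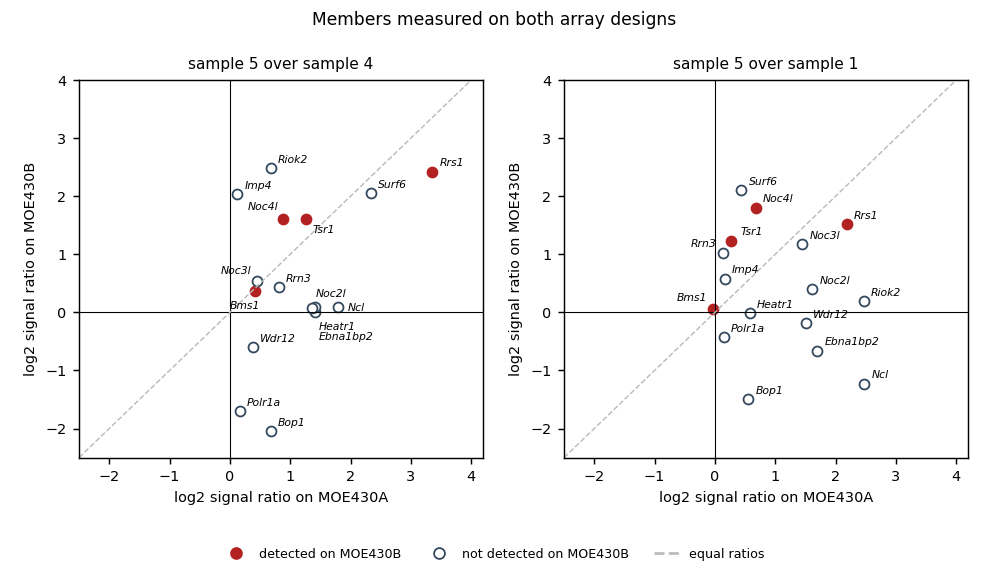
Log2 signal ratio on MOE430B (vertical) against that on MOE430A (horizontal) for the 16 members measured on both designs, for sample 5 over sample 4 and over sample 1. Filled points were detected on MOE430B and the dashed line marks equal ratios. Rrs1 and Noc4l lie right of and above zero in both panels, while Bop1 and Polr1a, undetected on MOE430B, lie below zero there.

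Single probe sets gave much the same picture of the ratios between samples. Of the 101 member probe sets 24 were detected. On MOE430A it was 18 of 79, no larger a share than the 23.1% of all its probe sets. On MOE430B it was 6 of 22, against 5.54% of all its probe sets. Of these 24, 22 read higher in sample 5 than in sample 4 (45.4% of all detected probe sets of 1 gene) and 20 higher than in sample 1 (49%). At least 1.5-fold higher were 14 over sample 4 (14.3%) and 14 over sample 1 (21.2%), and 0 were lower by as much in either (17.4% and 20%). Of all 101, most of them below the limit, 62 and 56 were at least 1.5-fold higher (24.3% and 26.2% of all probe sets of 1 gene) and 7 and 10 lower (26.6% and 30.1%). Npm1, Dkc1 and Polr1c each had a pair of detected probe sets on 1 design, and for Npm1 and Dkc1 both put sample 5 at least 2.07-fold over each other sample.

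Other genes of the pathway, from lists chosen with earlier results known, were placed much like the members on MOE430A. Of 103 listed, 99 were measured and 42 detected. The 37 detected on MOE430A had a median log2 ratio of 0.73 (1.66-fold) for sample 5 over sample 4, with 21 at least 1.5-fold higher (13.5% of all detected genes) and 0 lower (18.5%). Large-subunit factors outside the members had 0.96 and small-subunit factors 0.52, over 16 genes each. On MOE430B the 9 detected had 0.58 over sample 4 and 0.66 over sample 1, with sample 5 highest in 7 (36.9% of all detected genes). The 3 large-subunit factors among them had 0.05 and -0.17, with sample 5 highest in 1. Among the detected genes with the largest range, Brix1, a large-subunit factor, read 6290, 2227 and 1646 in samples 5, 4 and 1. Dis3, a nuclease of the RNA exosome that trims precursor RNA, read 6639, 2377 and 1259. Pwp2, a processome protein, read 4580, 1505 and 2457. Sample 5 was highest in each of these 3.

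Cytosolic ribosomal proteins, the components that the members assemble with RNA into subunits, were level at the median on MOE430A. Of 47 measured, 41 were detected. Their median log2 ratio on MOE430A was 0.01 for sample 5 over sample 4 and -0.03 over sample 1. At least 1.5-fold higher were 2 and 5 of 41 (13.5% and 18.8% of all detected genes), and 3 and 5 were lower (18.5% and 22.6%). Sample 5 was highest in 15 of the 41, against 32.7% of all detected genes. On MOE430B 2 were detected, with medians of 0.64 and 0.39 and sample 5 highest in both. Myc itself read 2827, 370 and 522, above the limit in sample 5 alone.

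**Figure D4:**
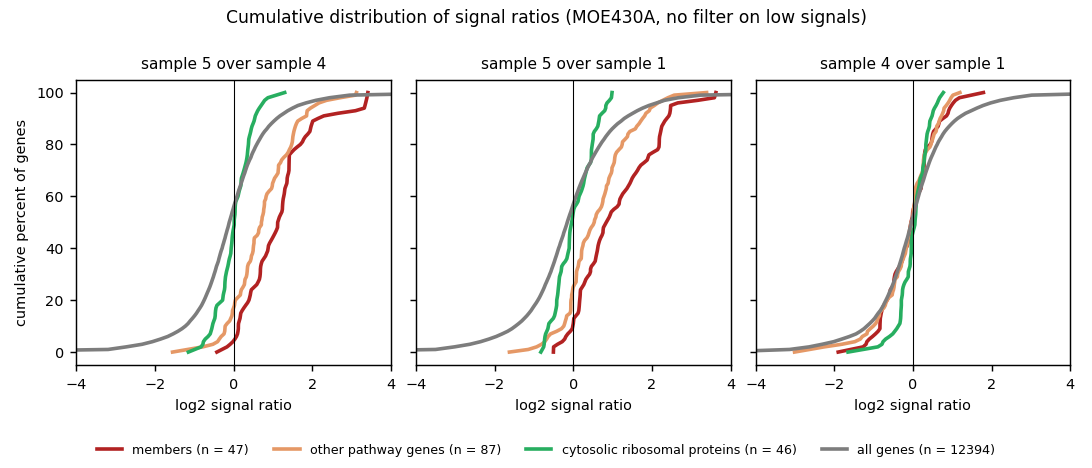
Cumulative percent of genes (vertical) by log2 signal ratio (horizontal) on MOE430A with no filter on low signals, for the 47 members, 87 other pathway genes, 46 cytosolic ribosomal proteins and all 12394 genes. In both panels for sample 5 the members lie furthest right, with medians of 1.12 and 0.84, and the ribosomal proteins cross the middle near 0. In the panel of sample 4 over sample 1 the 4 curves meet near 0.

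Several array measures differed between the samples, and their part in the result was not tested. The 3′ to 5′ ratio of Gapdh was lowest in sample 5 and highest in sample 1 on both designs. On MOE430B it was 11.5, 13.99 and 23.4 in samples 5, 4 and 1. That of Actb was 8.68, 9.57 and 17.5 on MOE430A, but 10.8, 8.23 and 20.2 on MOE430B, where sample 4 was lowest. Hybridisation controls were lowest in sample 5, with median log2 ratios of -0.92 over sample 4 and -0.51 over sample 1 on MOE430B. Scaling to them, chosen after seeing the data, shifts every gene of an array by the same amount. On MOE430A it moved the median log2 ratio of all probe sets to 0.65 over sample 4 and 0.72 over sample 1. The detected members then had 1.32 and 1.23, against 0.65 and 0.78 for all detected genes. At least 1.5-fold higher were then 15 of 16 over sample 4 (54.7% of all detected genes) and 14 of 16 over sample 1 (61.4%), with 2 of 16 for sample 4 over sample 1 (18.1%). The fluidics station of sample 5 differed on MOE430A and was the same for all 3 samples on MOE430B. The summed fibroblast markers on MOE430A were lowest in sample 5, but Pdgfra was highest there and Vim and Prrx1 were lowest in sample 1. On MOE430B Prrx1 read 10064, 25376 and 31362.5 in samples 5, 4 and 1, so that sample 5 was lowest.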

How the data were processed

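Gene expression of 3 samples of 1 line was read on 2 Affymetrix designs, which were analysed apart because their arrays were scaled apart. The authors deposited linear signal intensities, made with MAS5 per the submitters' processing notes, whose version is not stated there. The trimmed mean, with 2% removed at each end, was 1501 on MOE430A arrays and 1500 on MOE430B arrays. There are no counts, so the number of arrays limits the precision. Run settings, such as the fluidics station, are per the file headers. Columns left unused numbered 0.

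Symbols came from the probe set tables, updated to RefSeq of GRCm38.p6. The background list held 104 genes, of which 95 were measured and 5 passed the limit. Where a gene had several probe sets, the detected one with the highest mean log2 signal stood for it, and the brightest if none was detected. Signals under 1 were set to 1 before log2. Names ending in _s_at or _x_at were taken as able to match several transcripts. Medians, counts past 1.5-fold and SDs were computed with Python 3.11.15, pandas 2.3.3 and numpy 2.4.6, and the code was tested on simulated data.

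The members and all lists were chosen with earlier results of these data known. The rule for values in all samples took the first 3 genes of each role, the detected members of largest and smallest range, those detected on both designs and those not detected, and beyond the members Myc and up to 3 genes per list. The remaining members were added after their values were seen. Mrto4 was not analysed here. Alternatives varied the limit, the detection rule, scaling, floor, filter and probe set choice, and left out each sample in turn.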

Additional observations from a re-analysis of the deposited data

How the results depend on the processing

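On MOE430A the members' median log2 ratio of sample 5 over each other sample was positive under every alternative run. Over sample 4 it was 1.12 with no filter, 1.08 with members kept by their mean signal and 1.32 scaled to the hybridisation controls (0.65 for all genes). Over sample 1 it was 0.84 with no filter and 1.23 scaled to those controls (0.78 for all genes). With lower signals raised to the limit the ratios were 0.32 and 0.46, and with the sample outside the ratio left out they were 0.89 and 0.55. Keeping members by mean signal or raising signals to the limit admits members through a high signal in sample 5 alone. The counts at least 1.5-fold higher over sample 4, 8 of 16 (13.5% of all genes), became 35 of 47 (20.1%), 20 of 30 (17%) and 15 of 16 (54.7%) under the first 3 of these settings, and 5 of 13 (12.6%) without names ending in _s_at or _x_at. Over sample 1, 7 of 16 (18.8%) became 29 (22.6%), 17 (22.6%) and 14 (61.4%). For sample 4 over sample 1, 1 (13.2%) became 7 (21%), 3 (15.9%) and 2 (18.1%). The median SD was 0.68 with no filter and 0.18 to 0.63 with 1 sample left out.

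On MOE430B, no filter gave 0.49 over sample 4 and 0.49 over sample 1, with sample 5 highest in 66.7% of members. Leaving out names ending in _s_at or _x_at left Dkc1 alone, at 2.73 over sample 1. The ratio of sample 4 over sample 1, -0.30, turned to 0.12 with no filter and 0.51 for Dkc1 alone. The counts higher over samples 4 and 1, 4 of 5 each (14% and 21.1% of all genes), became 8 of 18 (25.3% and 26.2%) and, for Dkc1 alone, 1 of 1 (14% and 21.3%). The median SD was 0.27 to 1.14 with 1 sample left out. Wdr12 on MOE430B turned to 0.34 over sample 4 when scaled to the hybridisation controls.

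The 20 detected members became 32 at the 90th percentile limit, 10 at the 99th, 12 where most of a gene's probe sets had to pass, 47 by sample 5 alone and 42 by sample 5 alone with 1 limit per design, and were 20 to 25 with a sample left out. Beside these counts, shares of all genes were computed only for the main rule (24%) and for sample 5 alone (34.2%). Filters change which genes are kept, and for scaling the cause was not tested. Scaling to the controls, detection by single samples, raising signals to the limit, the MOE430B limit without its highest background probe set, and scaling of single members were chosen after seeing the data. No paired analysis was possible because there is 1 group and no test, and both designs hold the same RNA.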
